A study of Solanum lycopersicum with 24 samples.

Results

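Lignin and the phenolic part of suberin are built from phenylpropanoids, and 8 genes of that route were followed here in tomato hairy root tips. They were chosen by locus identifier: cinnamate 4-hydroxylase (C4H, Solyc05g047530), 3 loci for 4-coumarate:CoA ligase (4CL, Solyc03g117870, Solyc06g068650 and Solyc12g042460), hydroxycinnamoyl transferase (HCT, Solyc03g117600), coumaroyl ester 3-hydroxylase (C3H, Solyc01g096670), caffeoyl-CoA O-methyltransferase (CCoAOMT, Solyc02g093270) and ferulate 5-hydroxylase (F5H, Solyc02g084570). The deposited table lists 34688 loci, and all 8 genes are among them. All 8 also passed the filter on low counts, which left 18297 loci for testing. The enzyme names came with the list of loci, and the table itself gives identifiers only, with no product, position or transcript length. Levels are therefore compared between groups for each gene, and not between genes.

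Transcripts were counted in root tips of 8 kinds of hairy root of the cultivar M82, with 3 libraries each. The overexpressing groups SlMYB41-OX, SlMYB92-OX and SlWRKY71-OX carry the named gene behind the 35S promoter, which is active in most cell types, as a fusion to a FLAG tag. The knockouts were made with CRISPR/Cas9 for SlMYB41 (Slmyb41-ko), for SlMYB92 (Slmyb92-ko) and, in 2 lines, for SlWRKY71, here Slwrky71-ko(4) and Slwrky71-ko(5). The control carries an empty vector, so every group is a transformed hairy root. Cultures were kept dark at 25 °C with 3% sucrose in the medium, and at 9 days 10 tips of 1 cm were pooled into each sample. Apart from the SlWRKY71 knockout, the labels number no lines, so how many lines a genotype covers is not known. A difference between groups and a difference between individual lines cannot be told apart. A library carries the number of its column heading, and replicates are named by it. The labels speak of 4 biological replicates per line, of which 3 libraries per group were analysed here, and p-values measure the spread between these.

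In this route C4H, a cytochrome P450, turns cinnamic acid into p-coumaric acid, and 4CL links the acid to coenzyme A. HCT moves the coumaroyl unit onto shikimate, C3H hydroxylates its ring, and HCT can return the product to coenzyme A as caffeoyl-CoA. CCoAOMT methylates caffeoyl-CoA to feruloyl-CoA, which feeds guaiacyl lignin and the ferulate of suberin. F5H, another cytochrome P450, opens the branch to syringyl lignin. The transcription factor genes SlMYB41, SlMYB92 and SlWRKY71 are described in the series title as enriched in the exodermis, the outer cell layer of the root cortex, which in tomato deposits suberin.

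Library totals ran from 4852464 to 15372241 estimated counts. Levels are given as CPM, the count scaled to library size, with TMM factors, and a gene is called changed at a Benjamini-Hochberg adjusted p under 0.05 in edgeR's quasi-likelihood test over all 18297 loci. The targets were taken as Solyc02g079280 (SlMYB41), Solyc05g051550 (SlMYB92) and Solyc02g071130 (SlWRKY71), names recalled from memory. Each overexpressed target had its highest mean in its own group. SlMYB41 was at 7.18 to 13.6 CPM in SlMYB41-OX, against 0 to 0.159 in control. SlMYB92 was at 48.3 to 87.6 CPM in SlMYB92-OX, against 0 to 0.188 in control. SlWRKY71 was at 5.21, 41.5 and 26.2 CPM in libraries 2, 4 and 5 of SlWRKY71-OX, against 1.13 to 1.99 in control. Library 2 of SlWRKY71-OX thus had the lowest transgene level and is left out in turn below where it matters. It lay below library 3 of Slmyb92-ko, which had 5.55 CPM of SlWRKY71. SlWRKY71 stood at 0.456 to 4.30 CPM across both SlWRKY71 knockout lines, a range that covers the control, and transcript level therefore does not check these knockouts. Nor does it check the MYB knockouts, because both MYB transcripts were already at or near 0 CPM in control. SlMYB41 was at 0 to 0.27 CPM in Slmyb41-ko, and SlMYB92 at 0 to 0.199 CPM in Slmyb92-ko. The labelled tissue was not checked against marker genes, because the identifiers are not paired with gene names in the sources used here.

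Against control, 2 of the 8 genes were called in at least 1 group and the other 6 in none. F5H rose 6.85-fold in SlMYB92-OX, where 3.28% of all loci were called, and was the only member called higher than control in any of the 7 groups. HCT fell to 0.551 and 0.517 of the control level in Slwrky71-ko(4) and Slwrky71-ko(5), and was the only member called lower, where 6.92% and 7.79% of all loci were called. The test over all 8 groups called 2 members, F5H (adjusted p = 4.93e-06) and HCT (adjusted p = 0.00359), in edgeR's fit, and 25.7% of all loci were called there. The lowest mean of F5H, in Slmyb41-ko, rests on only 7 counts. Between the group with the highest and the group with the lowest mean, F5H spanned 21.9-fold and HCT 1.94-fold. The same ratio was 2.48 for C4H, 1.42 for C3H and 1.42 for CCoAOMT. Among the 4CL loci it was 1.32 for Solyc03g117870, 1.45 for Solyc06g068650 and 2.86 for the sparsely counted Solyc12g042460.

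**Figure D1:**
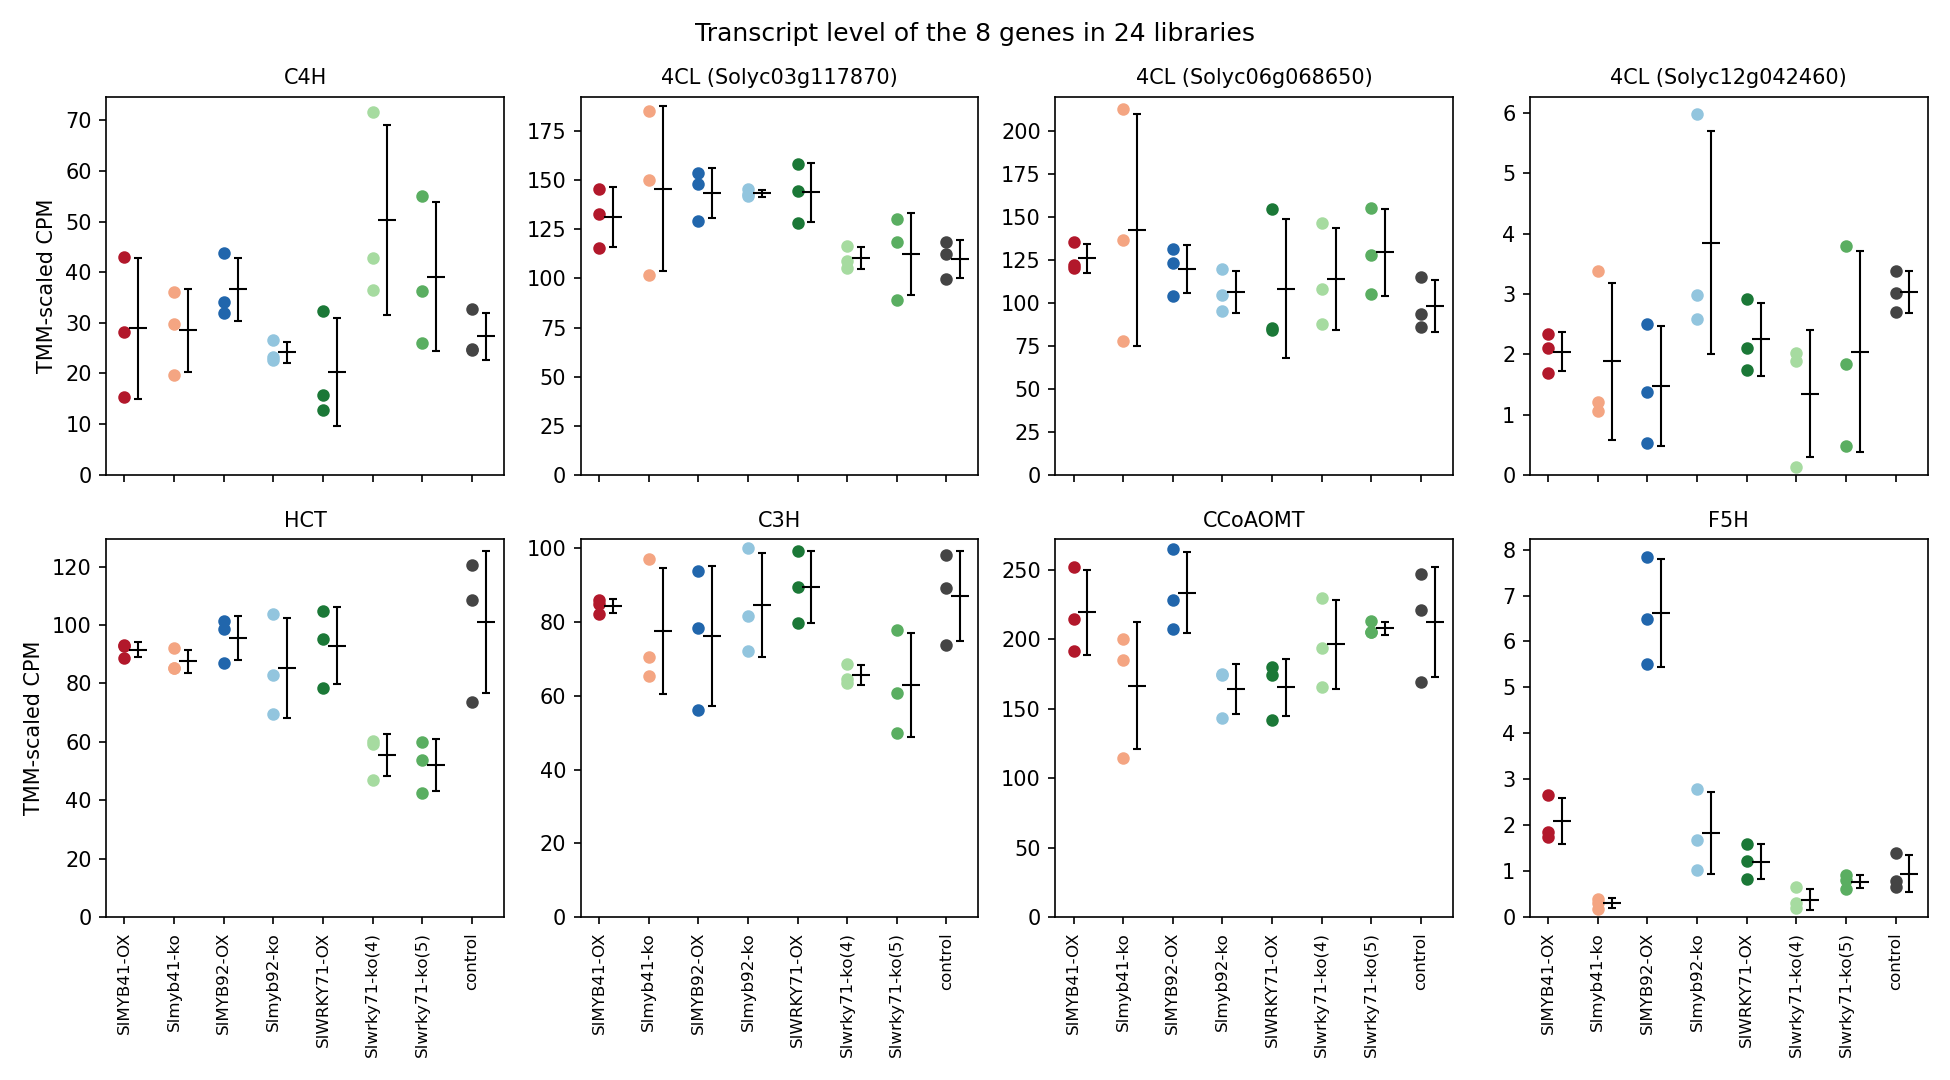
TMM-scaled level (CPM, linear axis from 0) of each of the 8 genes, 1 panel per gene, with a point per library and the mean ± SD of the 3 libraries of each group beside the points. F5H stands highest in SlMYB92-OX (5.50 to 7.84 CPM), and the HCT libraries of both SlWRKY71 knockout lines (42.6 to 60.3 CPM) lie below every library of the other 6 groups.

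Step by step along the route, C4H came first. Its level was 36.6, 42.8 and 71.6 CPM in libraries 2, 3 and 4 of Slwrky71-ko(4), and 55.0, 26.0 and 36.3 CPM in libraries 2, 3 and 5 of Slwrky71-ko(5). In SlWRKY71-OX it was 32.4, 15.8 and 12.7 CPM in libraries 2, 4 and 5, and in control 24.6, 24.8 and 32.7 CPM in libraries 2, 3 and 5. The 3 libraries of Slwrky71-ko(4) lay above the control libraries, while those of Slwrky71-ko(5) and of SlWRKY71-OX overlapped them. Neither knockout line passed the test against control: the log2 fold change was 0.88 (SE 0.36, edgeR adjusted p = 0.134) for Slwrky71-ko(4) and 0.52 (SE 0.36, adjusted p = 0.388) for Slwrky71-ko(5). SlWRKY71-OX against the mean of both knockout lines did pass, with C4H lower by 1.14 on the log2 scale (−1.14, SE 0.33, 95% interval −1.82 to −0.46, edgeR adjusted p = 0.0127). Its libraries nevertheless overlapped, because library 2 of SlWRKY71-OX stood at 32.4 CPM, above the 26.0 CPM of library 3 of Slwrky71-ko(5). Without library 2 of SlWRKY71-OX the log2 fold change was −1.64 (edgeR adjusted p = 0.00134), and the call was lost without library 4 (−0.99, adjusted p = 0.0802) or library 5 (−0.89, adjusted p = 0.085) of that group. In the other groups C4H averaged 28.9 ± 13.8 CPM in SlMYB41-OX, 28.5 ± 8.24 in Slmyb41-ko, 36.6 ± 6.24 in SlMYB92-OX and 24.2 ± 2.11 in Slmyb92-ko, against 27.4 ± 4.63 in control (SD, n = 3 each).

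The estimated count of C4H was not a whole number in any of the 24 libraries, so kallisto divided reads between this locus and others. In the 23 libraries where it missed a whole number by more than 0.03 of a count, the sum of C4H and the neighbouring identifier Solyc05g047520 was whole within that tolerance. C4H held 39.8% ± 12.2 of this sum in SlWRKY71-OX, 70.5% ± 11 in Slwrky71-ko(4) and 68.3% ± 13.9 in Slwrky71-ko(5), against 45.7% ± 4.65 in control (SD, n = 3 each). The summed level differed less: it averaged 48.9 ± 10.96 CPM in SlWRKY71-OX, 69.9 ± 14.9 in Slwrky71-ko(4) and 56.3 ± 11.8 in Slwrky71-ko(5), against 59.6 ± 5.34 in control. With the sum tested in place of C4H, SlWRKY71-OX against the mean of both knockout lines was no longer called (log2 fold change −0.36, SE 0.19, 95% interval −0.76 to 0.04, edgeR adjusted p = 0.157). Solyc05g047520 by itself moved the other way. It was called lower in the mean of both knockout lines than in control (−0.81, SE 0.23, edgeR adjusted p = 0.0231) and higher in SlWRKY71-OX than in the mean of both knockout lines (0.64, SE 0.23, adjusted p = 0.0385). Reads that fit both loci cannot be assigned to either with certainty, and the sum was chosen as an alternative after the values had been seen.

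**Figure D2:**
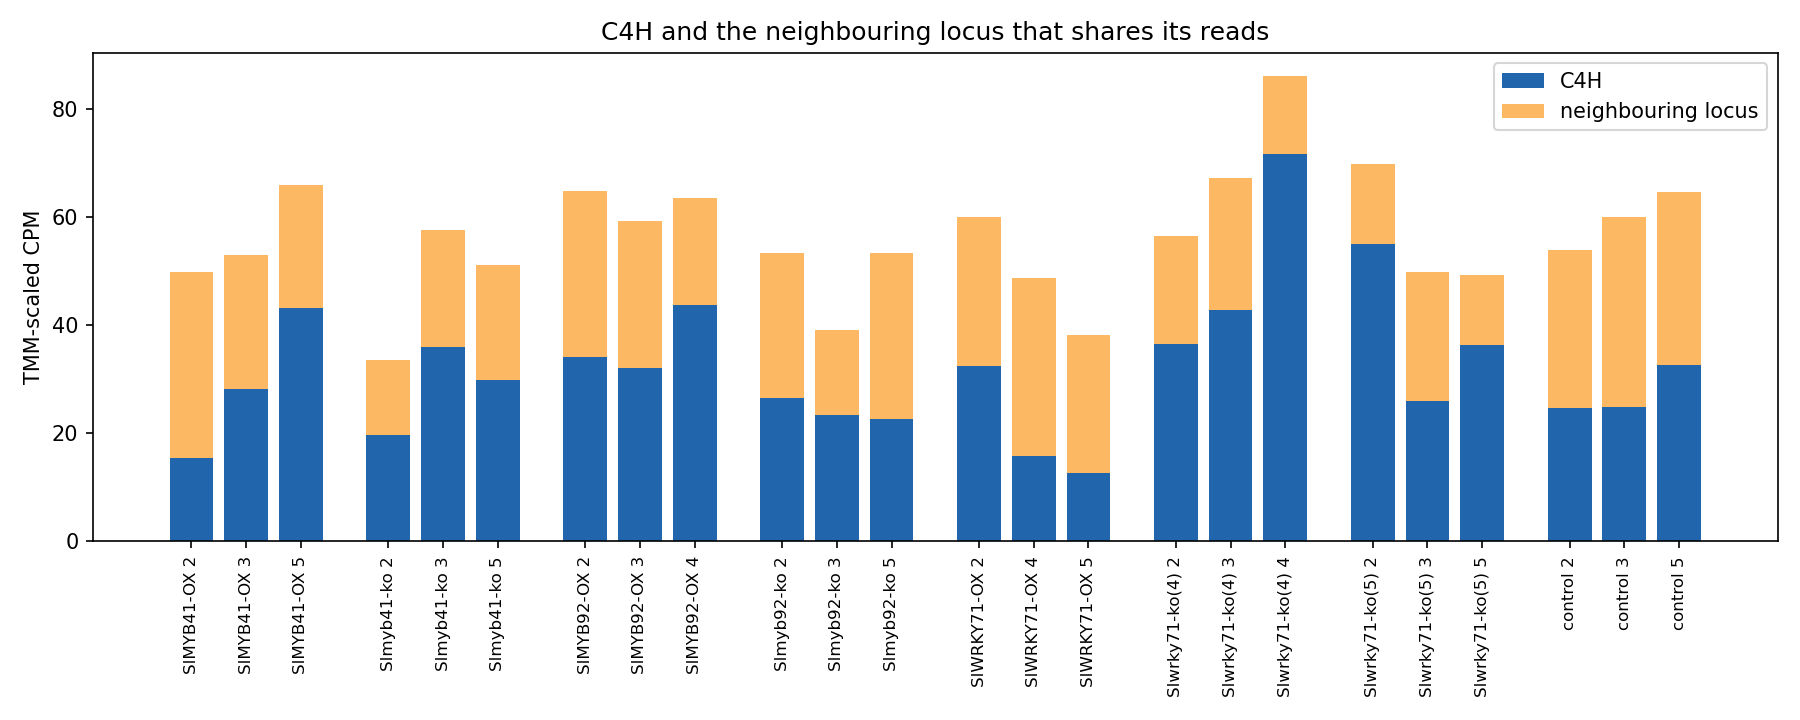
C4H and its neighbouring identifier Solyc05g047520 in each library of the 8 groups, as stacked bars of TMM-scaled CPM whose full height is the sum of both. The C4H share of the bar ran from 30.9% to 83.2% over the 24 libraries and averaged highest in the SlWRKY71 knockout lines, while the summed levels of SlWRKY71-OX and both knockout lines overlapped those of control.

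The 3 loci for 4CL, which activates the acids with coenzyme A, were not called in any comparison. Solyc03g117870 ran from 89.3 to 186 CPM over all libraries. It averaged 131 ± 15.3 CPM in SlMYB41-OX, 146 ± 42.0 in Slmyb41-ko, 144 ± 12.7 in SlMYB92-OX, 143 ± 1.80 in Slmyb92-ko and 144 ± 15.04 in SlWRKY71-OX, against 110.1 ± 9.66 in control (SD, n = 3 each). Both SlWRKY71 knockout lines stood near the control, at 110.4 ± 5.71 and 113 ± 21.0 CPM. The largest of its log2 fold changes against control was 0.40 in Slmyb41-ko (SE 0.19, 95% interval 0.02 to 0.79, unadjusted p = 0.0417, edgeR adjusted p = 0.224), so a change anywhere in that interval remains within what these libraries allow. Solyc06g068650 ran from 78.1 to 213 CPM, and both ends of that range were libraries of 1 group, Slmyb41-ko. Its control mean of 98.2 ± 15.1 CPM was also the lowest of the 8 groups, and every log2 fold change against control lay between 0.12 and 0.54.

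Solyc12g042460 is counted sparsely, with summed counts of 30 to 105 per group. Its mean was below the control mean of 3.03 ± 0.345 CPM in 6 of the 7 other groups, from 1.35 ± 1.05 CPM in Slwrky71-ko(4) to 2.25 ± 0.604 in SlWRKY71-OX, and above it only in Slmyb92-ko, at 3.85 ± 1.86 CPM (SD, n = 3 each). In SlMYB41-OX its 3 libraries (1.69 to 2.33 CPM) lay below the control libraries (2.69 to 3.38 CPM), and yet the log2 fold change of −0.59 had an SE of 0.66 (edgeR adjusted p = 0.894). The 20 tested loci nearest to it by identifier had median log2 fold changes against control between −0.30 and 0.02.

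Against control, 6.92% of all loci were called in Slwrky71-ko(4) and 7.79% in Slwrky71-ko(5). Of the 8 genes, only HCT, which forms the shikimate ester on which C3H acts, was called in these lines. It was at 59.3, 60.3 and 47.1 CPM in libraries 2, 3 and 4 of Slwrky71-ko(4) and at 59.8, 42.6 and 53.9 CPM in libraries 2, 3 and 5 of Slwrky71-ko(5), against 73.7, 120.5 and 109 CPM in libraries 2, 3 and 5 of control. No knockout library reached the lowest control library, and none reached 69.5 CPM, the lowest library of any other group. In bulk tissue, fewer cells of a type and less RNA per cell cannot be told apart. The log2 fold change against control was −0.86 for Slwrky71-ko(4) (SE 0.19, 95% interval −1.26 to −0.46, edgeR adjusted p = 0.0112) and −0.95 for Slwrky71-ko(5) (SE 0.19, −1.35 to −0.55, adjusted p = 0.00518). The lines did not pass a test against each other (−0.09 for line 5 over line 4, SE 0.19, 95% interval −0.49 to 0.31), and for the mean of both lines the change was −0.91 (SE 0.16, edgeR adjusted p = 0.00119). Both lines were set against the same 3 control libraries, of which library 2 was nearest to the knockouts. The call in Slwrky71-ko(4) was lost without control library 3 (edgeR adjusted p = 0.0574), without control library 5 (0.0516) or without library 4 of Slwrky71-ko(4) (0.0821), with log2 fold changes from −1.04 to −0.72 over the 6 fits that leave out 1 library. That in Slwrky71-ko(5) was kept in all 6 such fits, but lost with only the groups compared in the fit (−0.94, edgeR adjusted p = 0.0504).

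SlWRKY71-OX gives a comparison that leaves out the control libraries but reuses the same knockout libraries, and 30.9% of all loci were called there. HCT stood at 95.3, 105 and 78.6 CPM in its libraries 2, 4 and 5, all above every knockout library, and the log2 fold change of SlWRKY71-OX over the mean of both knockout lines was 0.79 (SE 0.16, 95% interval 0.45 to 1.12, edgeR adjusted p = 0.00162). This call was kept in 9 of 9 fits that leave out 1 library. SlWRKY71-OX itself did not pass against control (−0.12, SE 0.19, edgeR adjusted p = 0.825). In the 4 MYB groups HCT averaged 91.6 ± 2.55 CPM in SlMYB41-OX, 87.5 ± 3.90 in Slmyb41-ko, 95.6 ± 7.59 in SlMYB92-OX and 85.3 ± 17.2 in Slmyb92-ko, against 101 ± 24.3 in control (SD, n = 3 each). The 20 loci nearest to HCT by identifier had median log2 fold changes of 0.19 in Slwrky71-ko(4) and 0.31 in Slwrky71-ko(5) against control, and none of them was called lower. The estimated count of HCT was whole in all libraries, with no sign of reads divided between loci.

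C3H, the hydroxylase that works on the product of HCT, leaned the same way with smaller differences. It stood at 64.6, 63.4 and 68.6 CPM in Slwrky71-ko(4) and at 77.9, 50.0 and 60.6 CPM in Slwrky71-ko(5), against 73.8, 98.0 and 89.3 CPM in control. The libraries of line 4 lay below the control libraries and those of line 5 overlapped them. Neither line passed against control, with log2 fold changes of −0.41 (SE 0.20, edgeR adjusted p = 0.214) for Slwrky71-ko(4) and −0.47 (SE 0.20, adjusted p = 0.158) for Slwrky71-ko(5). In SlWRKY71-OX C3H was at 89.5, 99.2 and 79.6 CPM, above all 6 knockout libraries, and the comparison with the mean of both knockout lines was called at a log2 fold change of 0.48 (SE 0.17, 95% interval 0.12 to 0.84, edgeR adjusted p = 0.0398). That call lies near the threshold: of 9 fits that leave out 1 library it held only in the one without Slwrky71-ko(5) library 2, and across them the change ran from 0.40 to 0.57 and the adjusted p from 0.0181 to 0.164. The largest of these p-values was that without SlWRKY71-OX library 4.

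**Figure D3:**
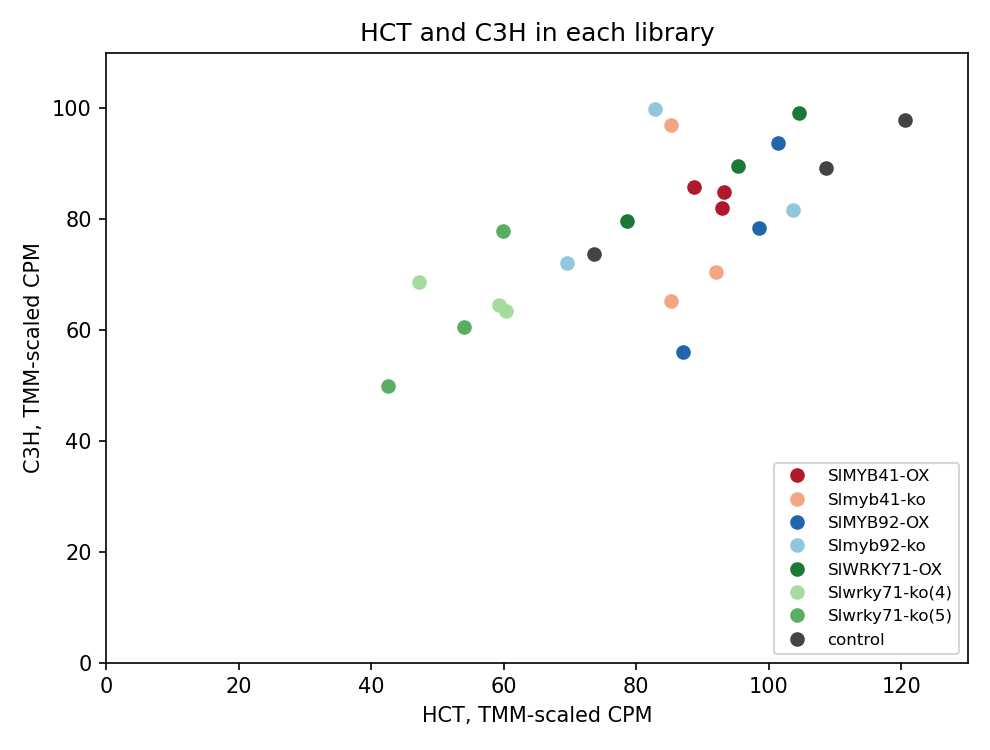
HCT level (horizontal axis, CPM) and C3H level (vertical axis, CPM) in each of the 24 libraries, coloured by group. The 6 libraries of the SlWRKY71 knockout lines take the lowest HCT levels, 42.6 to 60.3 CPM, at C3H levels of 50.0 to 77.9 CPM.

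Across the 24 libraries HCT and C3H had a Pearson correlation of log2 levels of 0.717, which was 0.547 after the group means were removed and 0.885 over the 8 group means. These values are a description: the libraries fall into groups, groups of 3 are too small for a value within each, and HCT and C3H share library depth and composition. For comparison, C4H and C3H had −0.303 over libraries and −0.869 over group means, and C4H and Solyc12g042460 −0.635 over libraries. The C4H values depend on how reads were divided with Solyc05g047520, as its share of their sum ran from 30.9% to 83.2%. After the group means were removed, Solyc06g068650 had 0.603 with Solyc03g117870 and 0.582 with CCoAOMT.

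CCoAOMT, the methyltransferase that makes feruloyl-CoA, ran from 115 to 265 CPM and was called in no comparison. It averaged 219 ± 30.7 CPM in SlMYB41-OX, 167 ± 45.7 in Slmyb41-ko, 233 ± 29.1 in SlMYB92-OX, 164 ± 18.1 in Slmyb92-ko, 165 ± 20.4 in SlWRKY71-OX, 196 ± 32.1 in Slwrky71-ko(4) and 208 ± 4.70 in Slwrky71-ko(5), against 213 ± 39.5 in control (SD, n = 3 each). Both MYB overexpressors had higher means than their knockouts. For SlMYB92-OX over Slmyb92-ko the libraries did not overlap (207 to 265 CPM in SlMYB92-OX, 144 to 175 CPM in Slmyb92-ko), and the log2 fold change was 0.50 (SE 0.20, 95% interval 0.09 to 0.92, edgeR adjusted p = 0.137). For SlMYB41-OX over Slmyb41-ko it was 0.40 (SE 0.20, −0.02 to 0.82, adjusted p = 0.428). Both values are for CCoAOMT alone, which shares reads with other loci.

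CCoAOMT also shares reads. Of the 20 libraries where its estimated count was not whole at a tolerance of 0.03, its sum with Solyc02g093230 and Solyc02g093250 was whole in 18. CCoAOMT held between 45.9% and 80.1% of that sum. In SlMYB92-OX Solyc02g093230 was at 14.9 ± 5.28 CPM, against 43.5 ± 12.2 in control (SD, n = 3 each), and was called lower (log2 fold change −1.54, SE 0.37, edgeR adjusted p = 0.0208). Solyc02g093250 was at 68.1 ± 8.44 CPM in SlMYB92-OX and 113 ± 26.7 in control. The sum of all 3 loci was at 316 ± 42.0 CPM in SlMYB92-OX and 369 ± 2.87 in control, and did not pass (−0.22, SE 0.21, edgeR adjusted p = 0.645). For SlMYB92-OX over Slmyb92-ko the sum had a log2 fold change of 0.08 (SE 0.21, edgeR adjusted p = 0.863), against 0.50 for CCoAOMT alone, and for SlMYB41-OX over Slmyb41-ko 0.30 (SE 0.21, adjusted p = 0.643). The summed level was called in no comparison.

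F5H, at the branch to syringyl units, was sparse, and each of its values rests on few reads. SlMYB92-OX had 7.84, 6.49 and 5.50 CPM in libraries 2, 3 and 4, from 129 counts in all, against 1.41, 0.79 and 0.658 CPM in libraries 2, 3 and 5 of control, from 24 counts. Every SlMYB92-OX library lay well above the highest control library. The log2 fold change was 2.78 (SE 0.45, 95% interval 1.83 to 3.72, edgeR adjusted p = 0.000824), and in the 6 fits that leave out 1 library it ran from 2.53 to 3.17 with the call kept in each. The estimated counts of F5H were whole in all libraries. The 20 tested loci nearest by identifier had a median log2 fold change of 0.12 in this comparison, and 1 of them was called higher.

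The other groups formed a descending series of F5H levels in which neighbours overlapped. SlMYB41-OX had 2.67, 1.75 and 1.86 CPM in libraries 2, 3 and 5, all above control, yet did not pass against it (log2 fold change 1.11, SE 0.46, 95% interval 0.15 to 2.08, edgeR adjusted p = 0.432). Slmyb92-ko had 2.79, 1.02 and 1.67 CPM, also not called against control (0.97, SE 0.45, adjusted p = 0.396). SlWRKY71-OX had 1.59, 1.21 and 0.833 CPM, within reach of the control. At the low end, Slwrky71-ko(5) had 0.81, 0.614 and 0.912 CPM, Slwrky71-ko(4) had 0.32, 0.192 and 0.651 CPM, and Slmyb41-ko had 0.188, 0.32 and 0.405 CPM from only 7 counts in its 3 libraries. The lower level of Slmyb41-ko did not pass against control (−1.56, SE 0.56, 95% interval −2.72 to −0.40, edgeR adjusted p = 0.112), nor did that of Slwrky71-ko(4) (−1.30, SE 0.54, adjusted p = 0.137). Of the 7 pairs of neighbours in the order of means, 6 overlapped, and the gap was that between SlMYB92-OX and SlMYB41-OX.

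Each MYB overexpressor was also set against the knockout of the same gene. F5H was higher in SlMYB41-OX (2.09 ± 0.504 CPM) than in Slmyb41-ko (0.303 ± 0.109 CPM; SD, n = 3 each) by 2.68 on the log2 scale (SE 0.54, 95% interval 1.56 to 3.79, edgeR adjusted p = 0.00452). It was higher in SlMYB92-OX (6.61 ± 1.18 CPM) than in Slmyb92-ko (1.83 ± 0.894 CPM) by 1.81 (SE 0.42, 95% interval 0.93 to 2.68, adjusted p = 0.00948). Both calls were kept in all 6 fits that leave out 1 library. The difference between these 2 contrasts, SlMYB92 minus SlMYB41, was −0.87 (SE 0.66, 95% interval −2.25 to 0.51, unadjusted p = 0.203, edgeR adjusted p = 0.571), so the contrasts were not shown to differ in size.

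Set directly against each other, SlMYB92-OX had more F5H than SlMYB41-OX without overlap of libraries, but the log2 fold change of 1.66 (SE 0.43, 95% interval 0.77 to 2.55) did not pass edgeR's test (adjusted p = 0.0992). It passed in DESeq2 (adjusted p = 0.0317). Slmyb92-ko over Slmyb41-ko was called (2.53, SE 0.53, 95% interval 1.43 to 3.63, edgeR adjusted p = 0.0331), but the call held in only 1 of 6 fits that leave out 1 library, where the log2 fold change ran from 2.07 to 2.81. It was lost without any 1 of the Slmyb41-ko libraries 2, 3 or 5, and without Slmyb92-ko library 2 or 5, with an adjusted p of up to 0.183. SlWRKY71-OX over the mean of both SlWRKY71 knockout lines was 1.12 (SE 0.43, edgeR adjusted p = 0.0513), and Slwrky71-ko(5) over Slwrky71-ko(4) was 1.03 (SE 0.57, not called).

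**Figure D4:**
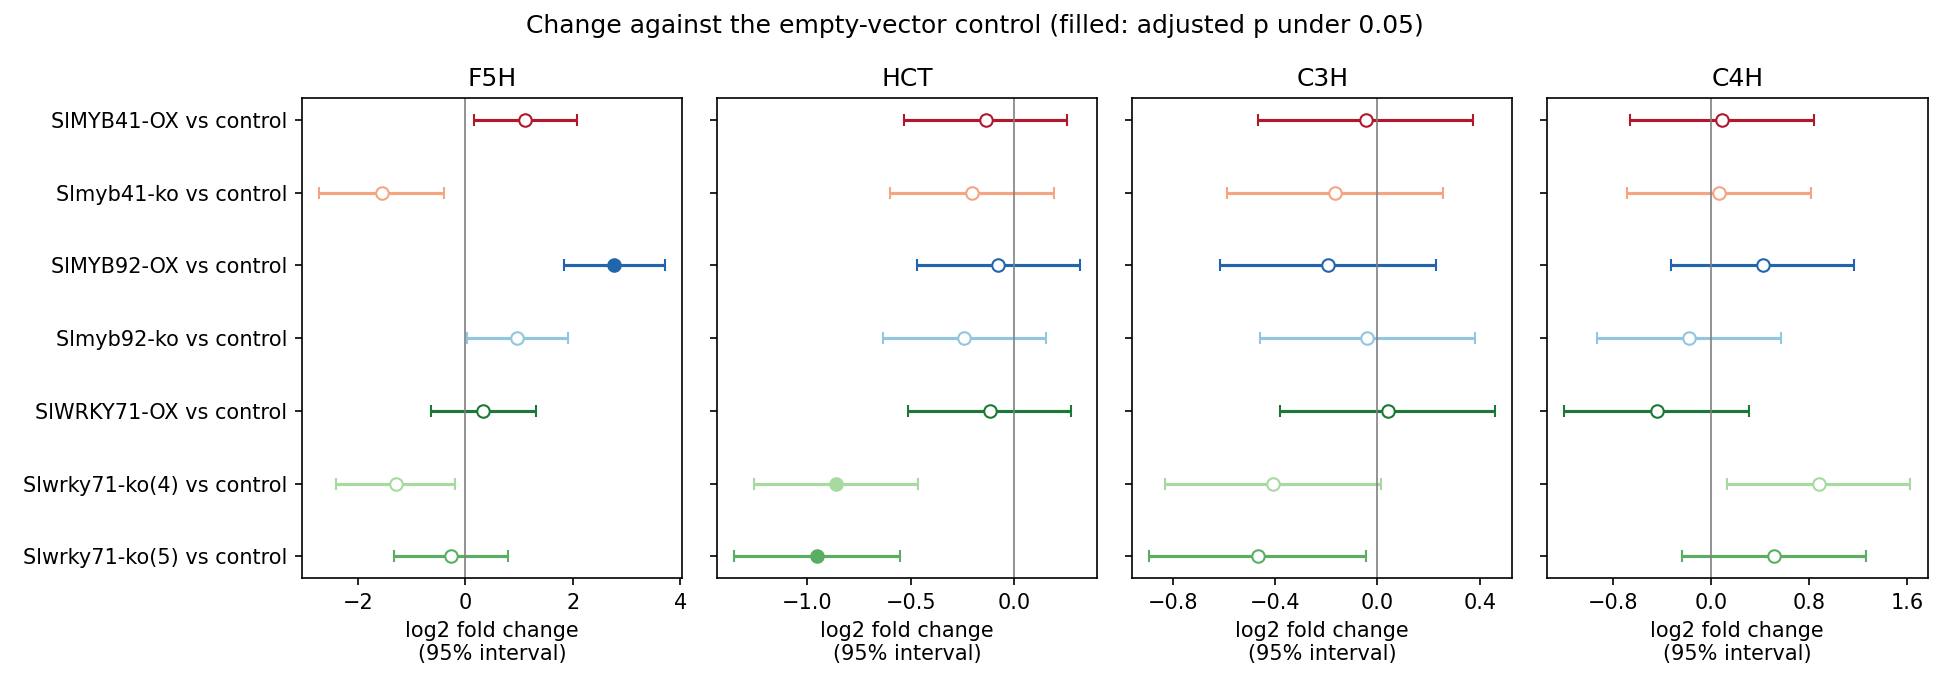
Log2 fold change of F5H, HCT, C3H and C4H in the 7 groups over control (horizontal axes, which differ between panels), with 95% intervals from edgeR's fit and called changes (adjusted p under 0.05) as filled points. The intervals of F5H in SlMYB92-OX (1.83 to 3.72) and of HCT in both SlWRKY71 knockout lines (down to −1.35) carry the called changes.

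Counted over the 8 genes, the calls against control are given beside the share of all tested loci called in the same comparison. The genes were chosen with earlier results of these data known, so the counts are no test against that share. In SlMYB41-OX 0 of 8 were called by edgeR (0.978% of all loci; 1 member had an unadjusted p under 0.05 and DESeq2 called 0). In Slmyb41-ko 0 were called (5.11% of all loci; 2 with an unadjusted p under 0.05, 0 by DESeq2). In SlMYB92-OX 1 was called, F5H (3.28% of all loci). In Slmyb92-ko 0 were called by edgeR (2.87%; 1 with an unadjusted p under 0.05, 0 by DESeq2), and in SlWRKY71-OX 0 (0.896%; 0 with an unadjusted p under 0.05, 0 by DESeq2). In Slwrky71-ko(4), Slwrky71-ko(5) and the mean of both lines HCT was the 1 call each time, where 6.92%, 7.79% and 14.5% of all loci were called. All 7 groups share the control libraries, so these counts are not independent of each other.

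Between groups, 1 member was called in SlMYB41-OX over Slmyb41-ko (3.2% of all loci), 1 in SlMYB92-OX over Slmyb92-ko (7.77%) and 1 in Slmyb92-ko over Slmyb41-ko (0.355%), each time F5H. SlWRKY71-OX over the mean of both knockout lines had 3 calls, HCT and C3H higher and C4H lower, where 30.9% of all loci were called, so that a count of 3 of 8 is close to the background. No member was called by edgeR in SlMYB92-OX over SlMYB41-OX (0.552% of all loci; 1 with an unadjusted p under 0.05, 1 by DESeq2), between the SlWRKY71 knockout lines (0.0547%; 0 and 0), or in the difference between the SlMYB92 and SlMYB41 contrasts (0.716%; 0 and 0). Against control, the median log2 fold change of the 8 genes lay between −0.26 in Slwrky71-ko(4) and 0.21 in SlMYB92-OX, where the medians over all loci were −0.01 and 0.01.

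The libraries of a group and the control did not overlap for 3 members in SlMYB41-OX (16.6% of all loci), 1 in Slmyb41-ko (26.3%), 3 in SlMYB92-OX (25.3%), 1 in Slmyb92-ko (16.8%), 1 in SlWRKY71-OX (14.6%), 5 in Slwrky71-ko(4) (34.5%) and 1 in Slwrky71-ko(5) (30.2%). Most of these genes were not called.

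Further loci of the same pathway were taken from a list of 24 identifiers recalled from memory and not annotated by the files, so they are given by identifier only. The table holds 19 of them, and 17 were tested. Among these, edgeR called 1 higher and 0 lower in SlMYB41-OX, 2 higher and 1 lower in Slmyb41-ko, 3 higher and 1 lower in SlMYB92-OX, and 1 higher and 1 lower in Slmyb92-ko and in each of the SlWRKY71 knockout lines, all against control. In SlWRKY71-OX 0 were called by edgeR, with 6 at an unadjusted p under 0.05 and 2 called by DESeq2. The share of all loci called in these comparisons ran from 0.896% in SlWRKY71-OX to 7.79% in Slwrky71-ko(5). The test over all 8 groups called 9 of the 17, where 25.7% of all loci were called. As the list was chosen with earlier results of these data known, its counts are no test against that share. In SlMYB92-OX, where F5H rose, Solyc03g080180 was at 626 CPM, against 213 CPM in control (log2 fold change 1.56, SE 0.29, edgeR adjusted p = 0.00304), and Solyc03g097500 at 160 CPM, against 2.64 CPM in control (adjusted p = 4.22e-05). Both calls were kept in all 6 fits that leave out 1 library. The called lower locus there was Solyc02g093230, which shares reads with CCoAOMT. That call was lost without SlMYB92-OX library 2 (edgeR adjusted p = 0.111) or 3 (0.0882) and without control library 2 (0.0992) or 3 (0.0525).

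Solyc04g063210 fell in both MYB knockouts. It was at 13.9 CPM in Slmyb41-ko and 8.81 CPM in Slmyb92-ko, against 28.7 CPM in control (log2 fold changes −1.06, edgeR adjusted p = 0.0157, and −1.69, adjusted p = 0.000234). It was also higher in each overexpressor than in the knockout of the same gene, by 1.21 for SlMYB41 (edgeR adjusted p = 0.00718) and 1.80 for SlMYB92 (adjusted p = 9.95e-05). The Slmyb41-ko call was lost without its library 3 (edgeR adjusted p = 0.0793) or 5 (0.0865) or without control library 5 (0.0712), and the SlMYB41 contrast without Slmyb41-ko library 3 (0.0593) or 5 (0.0528), while both SlMYB92 calls were kept in every such fit. The Slmyb41-ko call was also lost with only the groups compared in the fit (−1.07, adjusted p = 0.0509) and when the groups that target other genes replace control (−0.64, adjusted p = 0.116). Solyc01g107590 was called higher in the same knockouts, at 275 CPM in Slmyb41-ko and 225 CPM in Slmyb92-ko, against 122 CPM in control (edgeR adjusted p = 0.00194 and 0.023). SlMYB41-OX, at 128 CPM, was lower than Slmyb41-ko (−1.10, edgeR adjusted p = 0.00428), a call kept in all 6 fits that leave out 1 library. A level above control was not particular to the knockouts. SlMYB92-OX stood at 186, 212 and 216 CPM in libraries 2, 3 and 4, above the control libraries (102 to 134 CPM). The Slmyb92-ko libraries stood at 219 to 232 CPM. The Slmyb92-ko call was lost without any 1 of its libraries 2, 3 and 5 or without control library 5, with an adjusted p of up to 0.151, and when the groups that target other genes replace control (0.39, adjusted p = 0.195). Solyc03g116910 was at 41.3 CPM in SlMYB41-OX, against 109.9 CPM in Slmyb41-ko (−1.42, edgeR adjusted p = 0.0466), and the call was kept in 1 of 6 fits that leave out 1 library, with −0.85 and an adjusted p of 0.339 without Slmyb41-ko library 3.

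In the SlWRKY71 knockout lines, Solyc09g007920 and Solyc02g093250 were the loci of the list called lower than control. Solyc09g007920 was at 254 CPM in Slwrky71-ko(4), against 744 CPM in control (−1.55, SE 0.44, edgeR adjusted p = 0.0372), but only −0.49 (adjusted p = 0.455) when the groups that target other genes replace control, and the call was lost in all 6 fits that leave out 1 library. For the mean of both knockout lines over control the locus was also called (−1.47, SE 0.36, edgeR adjusted p = 0.0106), and that call was kept in 8 of 9 such fits and lost without control library 2 (0.0517). Low levels of Solyc09g007920 were not particular to these lines. Its level was 200, 256 and 327 CPM in libraries 2, 4 and 5 of SlWRKY71-OX, where it was not called against control. In Slmyb41-ko it ran from 216 to 371 CPM, and the lowest control library had 577 CPM. Solyc02g093250, a partner of CCoAOMT in read sharing, was at 50.3 CPM in Slwrky71-ko(5), against 113 CPM in control (−1.16, edgeR adjusted p = 0.0178). The call was lost without library 2 (0.0502) or 3 (0.0863) of that line or control library 2 (0.0684). For the mean of both knockout lines over control Solyc02g093250 was also called (−0.995, SE 0.24, edgeR adjusted p = 0.00911). That call was kept in 8 of 9 fits that leave out 1 library, with an adjusted p of up to 0.0622. In SlWRKY71-OX over the mean of both knockout lines 4 of the 17 were called higher and 0 lower, where 30.9% of all loci were called, so this count does not stand above the background. They were Solyc10g086180 (109 CPM in SlWRKY71-OX, 52.9 CPM in the knockout lines; 1.04, edgeR adjusted p = 0.00313), Solyc07g005760 (0.90, adjusted p = 0.00275), Solyc06g150137 (0.54, adjusted p = 0.0134) and Solyc02g093250 (0.70, adjusted p = 0.0307). Without SlWRKY71-OX library 4 the calls of Solyc06g150137 (0.0938) and Solyc02g093250 (0.125) were lost, and Solyc02g093250 was also not called without SlWRKY71-OX library 5 (0.0946), Slwrky71-ko(4) library 3 (0.057) or Slwrky71-ko(5) library 3 (0.0693). Solyc03g042560 was called higher than control in 5 of the 7 groups. Control held only 0.0529 CPM of it, so its fold is not given, and the call was lost in some of the fits that leave out 1 library in each of those groups. When the groups that target other genes replace control, all 5 calls were lost: the log2 fold change was 0.93 in SlMYB41-OX (edgeR adjusted p = 0.869), 0.37 in Slmyb41-ko (0.838), 0.41 in SlMYB92-OX (0.895), −0.38 in Slwrky71-ko(4) (0.776) and −0.47 in Slwrky71-ko(5) (0.711).

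The tested genes outside the list most like C4H over the 24 libraries were Solyc09g007560, with a Pearson correlation of log2 levels of 0.915, and Solyc02g091100, with 0.891. For CCoAOMT they were Solyc05g052750 with 0.791 and Solyc08g080120 with 0.79. These correlations are given with no test, and the libraries share depth and composition. Both C4H and CCoAOMT also share reads with other loci, so their levels depend on how those reads were divided.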

How the data were processed

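Poly(A) RNA of pooled root tips was sequenced as paired reads of 75 bp without marking strand, per the labels. The submitters' processing notes name the tools Trim Galore (0.6.6) and kallisto (0.46.2), and the authors deposited estimated counts per transcript. The annotation they used is not given in the sources at hand. Non-whole values, 6.17% of all, were rounded. All 24 libraries entered 1 edgeR 4.0.16 quasi-likelihood fit (R 4.3.3, limma 3.58.1) with filterByExpr, TMM and a mean per group. CPM is TMM-scaled, log2 CPM has a prior count of 2, and the SE is the change over the root of its F statistic. Intervals are 95%. There were 14 comparisons, 1 difference of contrasts and a test over all groups. DESeq2 1.42.0, no filter, single-library omission and other fits were alternatives. No 2 replicate libraries were identical. Columns were matched to groups by name.

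The rule named all 8 genes, the targets, listed pathway loci where called, and the 2 genes most correlated with C4H and with CCoAOMT. The members and lists were chosen with earlier results of these data known.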

Additional observations from a re-analysis of the deposited data

How the results depend on the processing

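Where a member had an unadjusted p under 0.05, no alternative reversed its direction. With reads shared between loci summed, an alternative chosen after the values had been seen, uncalled values of C4H and CCoAOMT did turn: C4H in Slwrky71-ko(5) over control was −0.08, against 0.52, in Slmyb41-ko −0.32, against 0.06, and CCoAOMT in SlMYB92-OX −0.22, against 0.13. Outside the fits that leave out 1 library, 93 of 101 counts of called members stayed within 1.5 times the reported one, and 146 of 160 values for members with such a p kept their direction and their side of the threshold. DESeq2 called 1 member in SlMYB92-OX over SlMYB41-OX, where edgeR called 0. With no filter on low counts, and with only the groups compared in the fit, Slmyb92-ko over Slmyb41-ko had 0 called members, against 1. With only the groups compared, Slwrky71-ko(5) over control had 0, against 1, as HCT reached an edgeR adjusted p of 0.0504 at −0.94. When control was replaced by the groups that target other genes, Slmyb41-ko had 1 (F5H −2.06), Slmyb92-ko 1 (F5H 1.31) and Slwrky71-ko(4) 2 (HCT −0.69, F5H −2.13). The C3H call in SlWRKY71-OX over the mean of both knockout lines was lost with no filter (adjusted p = 0.0831). The cause was not tested.

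The numbers in the column names were tried as a replicate block. A pairing by these numbers was not shown, and these values cannot exclude it. Over 67 pairs of libraries with the same number in different groups the deviations from the group means correlated at a median of −0.025 (−0.433 to 0.511). Over 185 pairs with different numbers the median was 0.018 (−0.482 to 0.526). With the block, the mean of both SlWRKY71 knockout lines over control had 2 called members, HCT and C3H (C3H −0.52, edgeR adjusted p = 0.0446), against 1, and C3H in SlWRKY71-OX over the knockout lines had an adjusted p of 0.0816.

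Leaving out 1 library at a time, called members ran from 0 to 1 in Slwrky71-ko(4) over control, from 0 to 1 in Slmyb92-ko over Slmyb41-ko, from 1 to 2 in the mean of both SlWRKY71 knockout lines over control, from 1 to 3 in SlWRKY71-OX over the mean of both lines, and from 2 to 3 in the test over all groups. Over all tested loci, counts of calls moved by more than 1.5 times in 24 of 101 such alternatives (14 larger, 10 smaller) and in 53 of 126 fits that leave out 1 library (3 larger, 50 smaller), and the background shares rest on these counts. Without control library 5, Slwrky71-ko(4) over control called 250 loci, against 1266, and the mean of both lines 777, against 2655. Without its library 2, SlWRKY71-OX over control called 1590, against 164. Solyc03g042560 turned to −0.38 in Slwrky71-ko(4) and −0.47 in Slwrky71-ko(5) against the groups that target other genes. F5H and Solyc12g042460 rest on few counts.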
